A study of Mus musculus with 4 samples.

Results

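OTX1 and OTX2 are the mouse homeobox genes Otx1 and Otx2, measured here in anterior and in posterior cerebellar lobes of Swiss mice at postnatal day 7 (PN7). Both genes were selected on the lobe difference of their probes in these arrays, so the signals that differ between the lobes are given below as a description and without a test. The members are all probes whose array symbol is OTX1 or OTX2. These were 2 of 45281 probes and 2 of 30854 symbols, 1 probe for each gene. Illumina MouseWG-6 v2.0 arrays were used for total RNA of 2 anterior and 2 posterior samples, 1 array for each sample. All samples were untreated. Neither the labels nor the methods tell whether the samples came from separate animals or from pools, so p-values measure only the spread between these samples.

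The Otx genes encode paired-class homeodomain transcription factors related to orthodenticle of the fly. In the embryo, Otx2 and Gbx2 repress each other, and the border between them sets the midbrain-hindbrain organizer from which the cerebellum is patterned. Later in development Otx1 and Otx2 are used again in the granule cell lineage of the cerebellum, in different lobes, and Otx2 is also a regulator of the choroid plexus, retina and pineal gland. The study compared the lobes to look for possible targets of the homeobox gene Tlx3, and its arrays are used here to describe Otx1 and Otx2.

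Otx2 was far higher in the posterior lobes. Its probe (ILMN_2691752) had a mean bead intensity, the brightness of the probe as deposited, of 351.3 on the array of anterior replicate 1 and 262.0 on that of anterior replicate 2. On the posterior arrays the intensity was 4935.9 in replicate 1 and 3688.6 in replicate 2. Both posterior arrays thus lay above both anterior arrays, which the choice of the gene on this contrast favours. How many of all probes were parted in this way was not counted. The anterior signal was above background as well, since every negative control probe was dimmer on each of the 4 arrays. After quantile normalization the log2 signals were 8.32 and 8.16 in the anterior samples and 12.31 and 11.82 in the posterior samples. The lobe means were 8.24 ± 0.11 and 12.06 ± 0.35 (SD over 2 arrays each), a difference of 3.82 or 14.1-fold. Within replicate 1 the normalized posterior signal was 15.9-fold and within replicate 2 it was 12.6-fold that of the anterior sample. In the intensities before normalization the fold was about the same in both replicates. The closest pair of arrays from different lobes was 3.50 apart on the log2 scale. In whole lobes, fewer cells that carry a transcript and less of it in each cell cannot be told apart.

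Otx1 was on the other side, higher in the anterior lobes, and by much less. The intensity of its probe (ILMN_2690126) was 6441.1 and 5893.7 on the arrays of anterior replicates 1 and 2. In the posterior samples it was 3077.6 in replicate 1 and 4522.9 in replicate 2. Otx1 was therefore detected in both lobes, brighter than every negative control probe on each of the 4 arrays, and was higher on both anterior arrays. The log2 signals were 12.54 and 12.63 in the anterior samples against 11.63 and 12.12 in the posterior samples. From the anterior mean of 12.59 ± 0.063 to the posterior mean of 11.88 ± 0.35 (SD over 2 arrays each) the difference was -0.71, a 1.64-fold lower signal. It was 1.89-fold lower within replicate 1 and 1.43-fold lower within replicate 2. Posterior replicate 2 came within 0.42 of the nearer anterior array. The gap between the lobes was thus smaller than the 0.49 between the posterior arrays themselves.

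**Figure D1:**
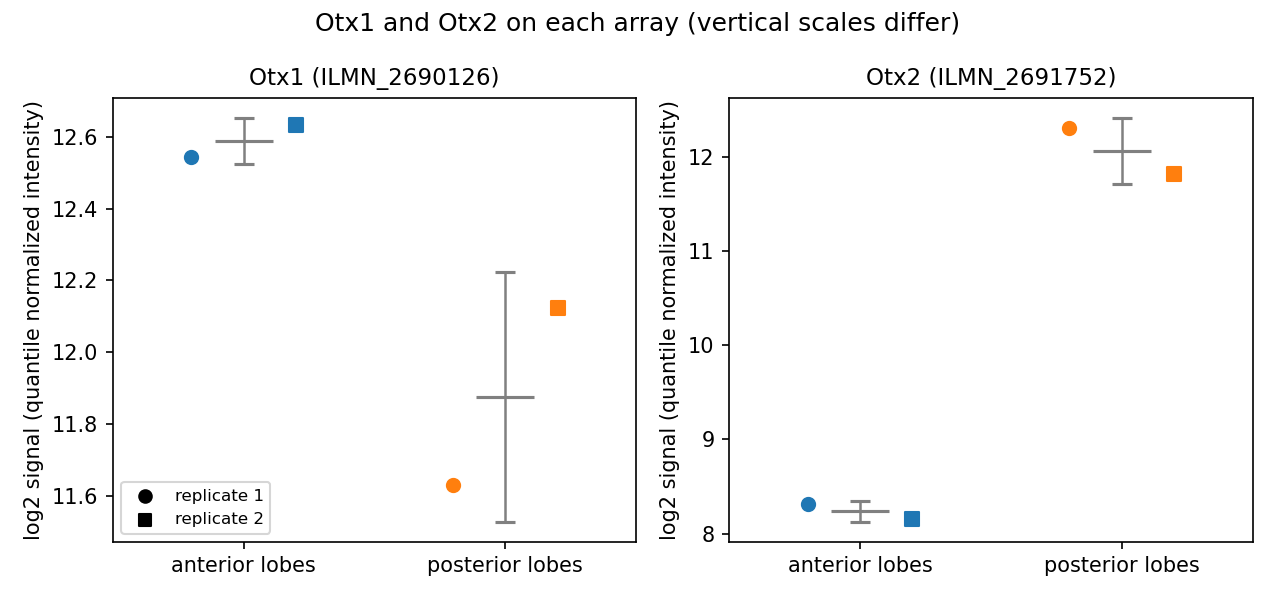
Quantile normalized log2 signal of the Otx1 probe (left) and the Otx2 probe (right) on each array, with circles for replicate 1, squares for replicate 2, and the grey bar and whiskers for the mean and SD over the 2 arrays of a lobe. The vertical scales differ between the panels. Otx2 was at 8.32 and 8.16 in the anterior and at 12.31 and 11.82 in the posterior samples, and Otx1 was at 12.54 and 12.63 against 11.63 and 12.12.

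On this chip a probe is carried by many beads, so the error of a signal within an array can be read from them. The Otx1 and Otx2 signals rested on 33 to 54 beads. The bead SD of Otx2 on the posterior array of replicate 1 was 1143.3 over 36 beads, which gives a standard error of 190.6, or 0.056 on the log2 scale. On the anterior array of replicate 2 the standard error of Otx2 was 6.47, or 0.036. For Otx1 the standard error lay between 0.038 in anterior replicate 2 and 0.057 in anterior replicate 1, also on the log2 scale. This error leaves out hybridization and the handling of the samples, so it says how well an array was read and not how far samples may differ. The posterior arrays were 0.49 apart for both genes.

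For comparison with the whole array, 21726 probes of 15615 symbols had a detection p under 0.05 on at least 2 of the 4 arrays and were tested with limma, posterior minus anterior. Both Otx probes were among them, detected on all 4 arrays. After Benjamini-Hochberg adjustment 23 of them (0.106%) were under 0.05, 16 higher and 7 lower in the posterior lobes. Without normalization 49 were higher and 74 lower, in a fit blocked by replicate 281 and 307 and with all probes kept 34 and 39, so the larger part was not on the same side in all settings. When either posterior array was left out none was by limma (785 probes with an unadjusted p under 0.05 when it was that of replicate 1, 844 for replicate 2), so no lobe difference below is called by the adjusted p in such a fit of 2 arrays against 1. Leaving out the anterior array of replicate 1 gave 2561 probes and that of replicate 2 gave 267. A figure caption of the study names a larger fold, but its methods set thresholds of 1.2-fold and a p under 0.05 for the arrays. These thresholds with the unadjusted p of limma are referred to below as the criterion. It was met by 1802 probes (8.29%), of which 716 (3.3%) were higher and 1086 (5%) lower, and this became 4833 when anterior replicate 1 was dropped, 769 when posterior replicate 1 was and 830 when posterior replicate 2 was. With a t-test in place of limma 741 probes met the thresholds, and 17 in place of 35 genes of all lists below (33 without Tlx3 and Crabp2, which entered by posterior signals alone), and 2818 probes met the criterion in a fit blocked by replicate. In the counts of listed genes a gene passes if any of its probes does, while the shares given beside them are of probes. When the arrays were shifted to a common 75th percentile in place of quantile normalization, the higher probes were 53.5% of those past the criterion, against 39.7%. Otx2 had the second largest increase of all 21726 probes and Otx1 the 141st largest decrease, ranks that follow from the contrast that chose them. Only F830002E14RIK, a probe that was below the detection threshold on both anterior arrays and was picked out after its values were seen, was ahead of Otx2. With 2 arrays against 2 an exact two-sided permutation test cannot go below p = 0.33.

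The difference between the replicates is a measure that did not enter the choice of the genes. In a fit with lobe and replicate number as terms, Otx1 was higher in replicate 2 by 0.29 on the log2 scale (standard error 0.10, adjusted p = 0.27 by limma) and Otx2 was at -0.32 (standard error 0.12, adjusted p = 0.31 by limma). Neither passed the test, while 181 of the 21726 probes (0.833%) did, 27 of them higher and 154 lower in replicate 2. After quantile normalization the direction of these differences was the same in both lobes for each gene. Without normalization this held for Otx2 only, as Otx1 was then lower in replicate 2 of the anterior samples. In the normalized values of Otx1 replicate 2 was higher by 0.090 in the anterior and by 0.49 in the posterior samples, and for Otx2 the values were -0.16 and -0.49. The normalized lobe difference of both genes was thus smaller in replicate 2, by 0.40 for Otx1 and by 0.33 for Otx2 on the log2 scale. Without normalization this held for Otx1 only. The anterior and posterior log2 signals of Otx2 were then 8.457 and 12.269 in replicate 1 and 8.033 and 11.849 in replicate 2, about equally far apart. For Otx1 they were 12.653 and 11.588 in replicate 1 and 12.525 and 12.143 in replicate 2. The replicates also differed in sex-linked transcripts. Xist, the RNA of the inactive X chromosome, had an intensity of 9189.4 and 8040.2 on the anterior and posterior arrays of replicate 1 and of 121.8 and 116.4 on those of replicate 2 (ILMN_2475156). The Y-linked gene Eif2s3y had 61.0 and 71.0 against 723.6 and 1055.9 (ILMN_1241001). Its other probe (ILMN_1215914), detected in replicate 2 only, had 127.4 and 133.2 against 142.2 and 175.2. Ddx3y, also Y-linked, was detected in both replicates, at 751.3 and 757.4 against 4005.1 and 4481.3 (ILMN_2899599). The other Ddx3y probes were below the detection threshold on every array. Xist (ILMN_2475156) and Eif2s3y (ILMN_1241001) thus differed more between the replicates of a lobe than between the lobes of a replicate. In replicate 2, Eif2s3y was also higher in the posterior than in the anterior sample. Xist and Eif2s3y split the arrays just as the replicate number does. Their part in the replicate difference of Otx1 and Otx2 cannot be told apart from the replicate number and was not tested.

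Of the closest relatives of the pair almost none was expressed above background. In the list of the OTX family and other paired-class homeobox genes with a lysine at the position that reads the DNA, all 7 genes beside Otx1 and Otx2 had a probe, and 1, Dmbx1, was bright enough to be tested. Dmbx1, a relative that is also listed as Otx3, had a log2 difference of 0.20 (standard error 0.18, adjusted p = 0.74 by limma, ILMN_3140871), with intensities of 197.1 and 114.9 in the anterior and 171.3 and 178.0 in the posterior samples. The difference of Dmbx1 was 0.46 without anterior replicate 1 and -0.061 without anterior replicate 2. Dmbx1, the only 1 of the 7 that could be tested, did not pass the criterion, which 8.29% of all tested probes met. Crx, the photoreceptor gene that shares its binding motif with Otx2, had intensities of 73.1, 68.4, 67.9 and 67.7 on the arrays of anterior replicates 1 and 2 and posterior replicates 1 and 2, all within the negative controls. Gsc and Gsc2 were below the detection threshold too. At PN7 the lobe difference was therefore seen in Otx1 and Otx2 and could not be followed in their undetected relatives.

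The genes that act with Otx2 at the midbrain-hindbrain boundary of the embryo were measured next. Of 18 listed genes 17 had a probe and 5 were tested, and 2 of these passed the criterion, both lower in the posterior lobes (5% of all tested probes passed in that direction). En1, an engrailed homeobox gene needed to form the cerebellum, had intensities of 7589.9 and 7913.1 in the anterior and 5584.4 and 5568.0 in the posterior samples (ILMN_2776047). Its log2 difference was -0.47 (standard error 0.11, adjusted p = 0.27 by limma), and that of its other probe (ILMN_3163581) was -0.56. Irx2, an Iroquois homeobox gene, was at -0.42 (standard error 0.091, adjusted p = 0.26 by limma, ILMN_3115213), with -0.37 for a second probe that did not pass. The intensities of that second Irx2 probe overlapped between the lobes. A single gene of the list passed without posterior replicate 1, and 3 did without anterior replicate 2. With the t-test 1 passed and with the replicate block 3. Gbx2, the partner of Otx2 at the boundary, was detected on all arrays at intensities of 543.6 and 257.6 in the anterior and 339.2 and 249.1 in the posterior samples. Its difference of -0.36 had a standard error of 0.30 and did not pass (adjusted p = 0.72 by limma), and its intensities overlapped between the lobes. Within each replicate Gbx2 was lower in the posterior sample, and it was among the 3 genes past the criterion with the replicate block. En2 was at -0.060 (standard error 0.064). The median over the 5 genes was -0.36, against 0.0023 over all tested probes, but it shrank to -0.079 without anterior replicate 1 and to -0.12 without posterior replicate 2. Wnt1, Fgf8, Fgf17, Fgf18, Pax2, Pax5, Pax8 and Lmx1b, which act in the organizer of the embryo, were not detected.

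Of 12 genes for proteins that bind or act together with Otx2, all had a probe and 10 were tested. A single one passed the criterion in the lower direction, in which 5% of all tested probes did. It was Tle2, a Groucho-type corepressor, at -0.42 on 1 of its 2 tested probes (ILMN_1250103, standard error 0.13, adjusted p = 0.40 by limma). The other, ILMN_2669225, was at -0.27, and no gene of the list was past the criterion in the lower direction without posterior replicate 2. In that direction 2 were without anterior replicate 2, and higher genes, of which there were none, numbered 4 without anterior replicate 1 and 1 without anterior replicate 2. With the t-test none passed, and with the replicate block 1 was higher and 1 lower. The related corepressors Tle1, Tle3 and Tle4 did not pass on any of their tested probes, and the median over the 10 genes was -0.079 (-0.089 to -0.038 when each array was left out). The transcription factor genes Foxa2 and Mitf were not detected in either lobe.

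Genes that Otx2 is known to control in retina, pineal gland, pigment epithelium, hypothalamus and choroid plexus were mostly below the detection threshold. Of 19 listed genes 17 had a probe and 6 were tested, with a median log2 difference of 0.0096 (0.010 to 0.067 over 8 alternative settings). None of the 6 passed the criterion or an unadjusted p under 0.05 by limma. Of all 21726 tested probes 3.3% were higher and 5% lower by the criterion, and 2185 had an unadjusted p under 0.05 by limma. The criterion was passed by 1 gene, higher, without anterior replicate 2, by 1, lower, without anterior replicate 1 and by 1, lower, with the replicate block. The photoreceptor genes Crx, Rbp3 and Aipl1, the pigment cell genes Tyr and Tyrp1 and the melatonin enzyme gene Aanat were not detected on any array. Among the tested genes, Dct, Rpe65, Best1, Oc90 and Wnt4 lay between -0.072 and 0.20 on the brightest probe of each. The sixth, Ttr, was at -1.11 and is described next.

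Since Otx2 is abundant in the choroid plexus, which lies against the posterior cerebellum, the genes of that epithelium were examined beside it. The intensity of its most characteristic gene, Ttr, which encodes the thyroid hormone carrier transthyretin, was 599.9 in anterior replicate 1, 9501.9 in anterior replicate 2, 325.9 in posterior replicate 1 and 3777.6 in posterior replicate 2. Ttr was thus high in both lobes of replicate 2 and low in both lobes of replicate 1. Within each replicate it was lower in the posterior than in the anterior sample. Its lobe difference was -1.11 (standard error 1.60, adjusted p = 0.84 by limma), and its replicate difference was 3.86 (standard error 0.15, adjusted p = 2.3e-07 by limma). The lobe fit had no term for the replicate number, so its standard error takes in the replicate difference. The part of choroid plexus cells in the Otx2 difference was not tested.

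Of the 28 genes of the choroid plexus list 27 had a probe and 18 were tested. The median log2 difference was -0.078, and its sign changed in 2 of 8 alternative settings. The criterion was passed by 4 genes in the higher and 2 in the lower direction, against 3.3% and 5% of all tested probes, and none passed the adjusted p. With the t-test none passed in either direction, and with the replicate block 4 were higher and 4 lower. Without posterior replicate 2 the higher genes were 2, and the lower genes were 8 without anterior replicate 1 and 0 without posterior replicate 1. Of the first 8 genes of the list, Kcnj13 had no probe, and Folr1, Tmem72, Sostdc1 and Kl were below the detection threshold in at least 3 of the 4 samples. Clic6, a chloride channel gene of the epithelium, was lower in the posterior lobes by 0.89 (standard error 0.27, adjusted p = 0.39 by limma), with intensities of 503.9 and 699.8 against 268.1 and 372.2. The water channel gene Aqp1 was at -0.21 (standard error 0.30). The other genes past the criterion were named after their values were seen. These were Enpp2, lower by 0.41 on 1 of 3 probes, and in the higher direction Slc13a4 (1.34), Msx1 (0.75), Prlr (0.52) and Igfbp2 (0.46), these last on 1 of 2 tested probes each, with 0.20 and 0.28 on the other. Slc13a4, a sulfate transporter gene, was the only one besides Ttr that also differed between the replicates (0.59, adjusted p = 0.046 by limma). The summed quantile normalized signal of the list, on 1 probe for each gene, was 10165 and 21459 in the anterior and 10295 and 15147 in the posterior samples. Enpp2 was the gene of the highest mean signal on the log2 scale. Ttr is part of these sums, at log2 signals of 9.1 and 13.3 in the anterior and 8.37 and 11.8 in the posterior samples. A sum without Ttr was not taken. Lmx1a, listed for the choroid plexus and for unipolar brush cells, did not pass in either direction.

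The 5 genes whose pattern over the 4 arrays was most like that of Otx2 were found by the distance between log2 signals centred on their own mean, among the 19913 other probes detected on all arrays. The nearest was Ptgds, the gene of prostaglandin D synthase, at a distance of 0.89, followed by the imprinted RNA H19 (1.40), the monooxygenase gene Moxd1 (1.55), the proteoglycan gene Ogn (1.95) and the matrix gene Mgp (1.95). Their higher signal on the posterior arrays follows from this choice. They differed from Otx2 in which posterior array was the brighter. Ptgds had intensities of 2438.3 in posterior replicate 1 and 4055.5 in posterior replicate 2, Ogn had 824.6 and 1192.4 and Mgp had 898.4 and 1356.9, whereas Otx2 was lower in replicate 2. The same 5 genes were found without normalization, with the common 75th percentile and with cyclic loess, and 4 of them with neqc.

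Ptgds and Ogn belong to the list of meningeal fibroblast genes, the cells of the membranes that cover the brain, a list written with earlier results of these arrays known. Of its 16 genes all had a probe and 14 were tested on probes detected in both lobes. Of these the criterion was passed by 8 genes, all higher in the posterior lobes, and the adjusted p by 3, which were Dcn and, already picked above for their likeness to Otx2, Ptgds and Ogn. Of all tested probes 3.3% were higher by the criterion and 0.106% passed the adjusted p in either direction. Both Ptgds and Ogn are among the 8 and the 3, and their calls follow in part from the choice by likeness. Another gene, Crabp2, named after its values were seen, entered the test by its posterior signals alone and is not counted among the 8. With it the number was 9, which became 4 with the t-test, 4 without posterior replicate 2, and 9 higher and 1 lower without anterior replicate 1. The median log2 difference was 0.50 over the 14 genes, against 0.0023 over all tested probes, and 0.51 with Crabp2, and it kept its sign in all 8 alternative settings. Ptgds had intensities of 263.3 and 255.5 in the anterior samples and a log2 difference of 3.61 (standard error 0.23, adjusted p = 0.015 by limma). Dcn, which encodes decorin, was at 0.93 on its brightest probe (standard error 0.071, adjusted p = 0.024 by limma, ILMN_2747959), with 3755.8 and 3073.1 against 6334.0 and 6554.4. Ogn was at 2.00 (standard error 0.18, adjusted p = 0.035 by limma). Lum, the gene of lumican, was at 0.51 (adjusted p = 0.36 by limma) and Col1a1 at 0.52 (adjusted p = 0.54 by limma). The summed quantile normalized signal of the list was 18103 and 20764 in the anterior and 29023 and 35250 in the posterior samples, with Igf2 as the gene of the highest mean signal, and only Foxd1 of the 16 genes was below the detection threshold. The summed signal was thus highest in posterior replicate 2, while Otx2 was highest in posterior replicate 1. The part of meningeal cells in the Otx2 difference was not tested.

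**Figure D2:**
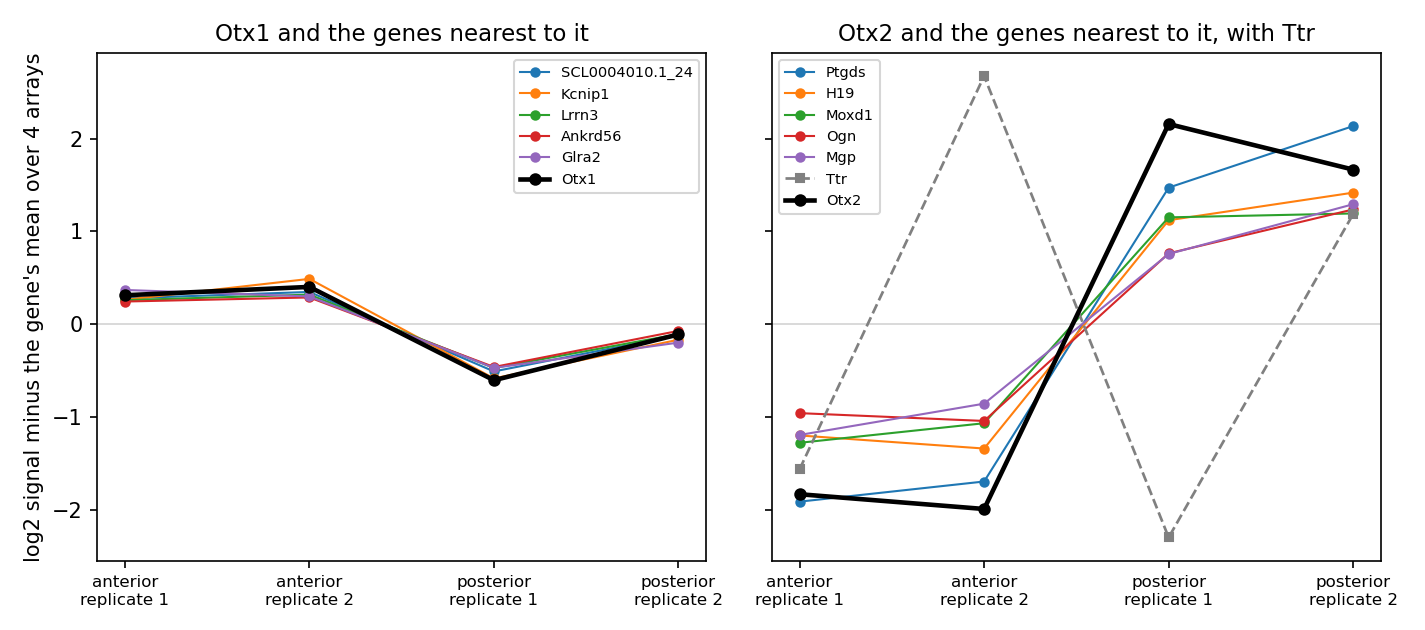
Log2 signal of each gene minus its own mean over the 4 arrays, for Otx1 with the 5 genes nearest to it (left) and for Otx2 with the 5 genes nearest to it and Ttr (right). Lines only join the points of a gene. Otx2 was high on both posterior arrays and higher in replicate 1, Ptgds, Ogn and Mgp were higher in replicate 2, and Ttr was high in replicate 2 of both lobes.

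The genes most like Otx1 were closer to it, as its range over the arrays was small. They were an unnamed transcript with the array symbol SCL0004010.1_24 at a distance of 0.12, Kcnip1 (0.12), Lrrn3 (0.17), Ankrd56 (0.20) and Glra2 (0.20). Kcnip1 encodes a protein that modulates A-type potassium channels, and its intensities were 522.7 and 519.3 in the anterior and 263.8 and 354.0 in the posterior samples. Glra2, a glycine receptor subunit gene, had 5142.3 and 4253.1 against 2608.7 and 3297.3. Their log2 differences between the lobes, from -0.75 to -0.53, follow from the way they were picked. The same 5 were found without normalization, with the common 75th percentile and with cyclic loess, but 2 of them with neqc.

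Both Otx genes are known from the granule cell lineage, and genes of that lineage were counted in 2 lists. Of 18 genes of external granule layer progenitors 15 were tested, 1 was past the criterion in the higher and 1 in the lower direction, and the median was 0.040 (0.0057 to 0.11 when each array was left out). Atoh1, which makes these progenitors, was not detected by its probe. Barhl1 was at -0.30 (standard error 0.13) and Zic1 at 0.17 (standard error 0.072), neither past the criterion. The genes that passed, Zic2 (0.72 on 1 of 2 probes) and Sfrp1 (-0.38 on 1 of 2 probes), were named after their values were seen. Of 9 genes of differentiated granule neurons 7 were tested, with 1 higher, 2 lower and a median of -0.052 (-0.15 to -0.060 when each array was left out). Over all tested probes 3.3% were higher and 5% lower. Gabra6, a receptor subunit gene of mature granule neurons, was at -0.10 (standard error 0.16), Grin2c passed with 0.32 (standard error 0.12), and the transporter gene Slc17a7 was at -0.22 (standard error 0.072). Those lower were Etv1, with -0.64 on its brightest probe, and Kcnd2, with -0.27 on 1 of 2 probes, named after their values were seen. The summed quantile normalized signal was 74952 and 71276 against 76545 and 73062 for the progenitor list, and 49439 and 47997 against 46511 and 45798 for the neuron list. These counts of 1 or 2 genes did not hold when single arrays were left out. With the t-test a single gene of both lists passed, lower and in the neuron list, and with the replicate block 2 progenitor genes were higher and 3 lower. In the progenitor list 3 genes passed in each direction without anterior replicate 1 and none in either without posterior replicate 1, while 2 were lower without anterior replicate 2. In the neuron list no gene was higher without either posterior array and 1 was lower without anterior replicate 2 or either posterior array.

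Other cells of the cerebellum and the tissue that borders it were checked in the same way, with 3.3% of all tested probes higher and 5% lower by the criterion. Of 7 genes of unipolar brush cells, interneurons common in the most posterior lobules, 6 were tested and 1 passed the criterion, Calb2, the gene of calretinin, at 0.37 (standard error 0.058, adjusted p = 0.13 by limma). Eomes, which defines these cells, was at 0.19 (standard error 0.18), with intensities of 588.1 and 515.5 against 712.5 and 528.9, and the median was -0.058, with a change of sign in 2 of 8 alternative settings. Of 8 Purkinje cell genes 6 were tested, with a median of -0.12. None passed the criterion by limma, and 1 had an unadjusted p under 0.05, as did 2185 of all 21726 tested probes. Pcp2 was bright in all samples, at 18402.3 and 15585.3 in the anterior and 15273.3 and 16659.9 in the posterior samples (ILMN_2641456), while the probes of Calb1 and Car8 were not detected. Markers of the cerebellum were thus present in all 4 samples. Of 10 genes of the midbrain, which borders the anterior lobes and expresses Otx2 itself, 3 were tested and none passed the criterion or an unadjusted p under 0.05 by limma. Pou4f1 and Pax7 were below the detection threshold in at least 3 of the 4 samples and Tal1 was at -0.085 (standard error 0.11). Of 12 genes of the medulla 2 were tested, again with none past either threshold. Hoxa2 and Hoxa3 were not detected and Hoxa4 was at 0.11 (standard error 0.11). Without anterior replicate 1 the criterion was also passed by 2 lower unipolar brush cell genes, by 1 higher and 2 lower Purkinje cell genes and by 1 higher midbrain gene, and 1 Purkinje cell gene was lower without posterior replicate 2. With the replicate block 1 Purkinje cell gene was higher and 1 lower.

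Among the 14 lists the lowest median, in the direction of Otx1, was that of myelinating oligodendrocytes. All 11 genes had a probe and 10 were tested, all of them lower in the posterior lobes, 9 past the criterion and 4 past the adjusted p. Of all tested probes 5% were lower by the criterion and 0.106% passed the adjusted p in either direction. The median log2 difference was -0.86, and it kept its sign in all 8 alternative settings. Mag, a glycoprotein gene of myelin, was lower by 0.99 (standard error 0.062, adjusted p = 0.015 by limma), with 15486.4 and 12805.9 against 7034.7 and 7071.2. Mobp was at -1.14 on its brightest probe, Mal at -1.53 and Ugt8a at -0.86 (adjusted p = 0.015, 0.049 and 0.035 by limma). Mbp was at -0.45 on its brightest probe and Mog at -1.41 (adjusted p = 0.064 and 0.062 by limma). The summed quantile normalized signal was 94403 and 93443 in the anterior and 64040 and 60170 in the posterior samples, with Mbp the gene of the highest mean signal and Olig2 below the detection threshold. The share of oligodendrocytes in the Otx1 difference was not tested.

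**Figure D3:**
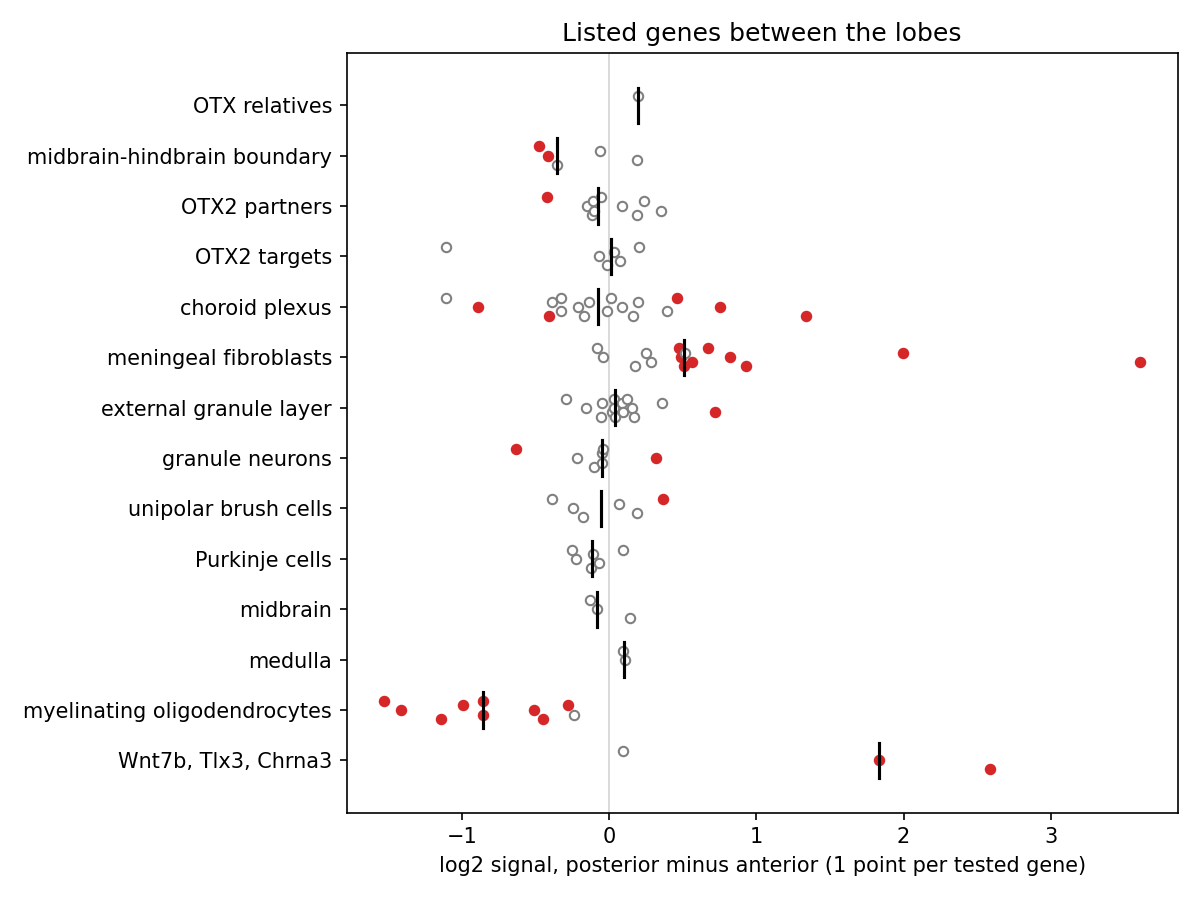
Log2 difference, posterior minus anterior, of each tested gene of the 14 lists, on the probe of the gene with the highest mean signal. Otx1 and Otx2 are left out. Filled points passed the criterion on that probe, and the black line is the median of the list, -0.86 for myelinating oligodendrocytes, 0.51 for meningeal fibroblasts and -0.078 for the choroid plexus. The points of Tlx3 and Crabp2 rest on anterior signals below the detection threshold.

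Apart from Otx1 and Otx2, the study names Wnt7b and Gli1 as compartmentalized genes and Tlx3 and Chrna3 as genes of the posterior lobes. The study took Chrna3 from the same arrays. It also reported RT-PCR of Tlx3 and Chrna3 in the lobes and immunofluorescence of both proteins in sections. In cerebellar cultures it raised and lowered Tlx3 and measured Chrna3. The nicotinic receptor subunit gene Chrna3 was at 1.84 (standard error 0.15, adjusted p = 0.030 by limma). The homeobox gene Tlx3 was below the detection threshold on both anterior arrays, and the posterior mean was at least 3.02-fold higher, a bound against the dimmest detected probes. It entered the test by its posterior signals alone, so no test is given for it. Like Otx2, Tlx3 was brighter in posterior replicate 1 than in posterior replicate 2, at intensities of 449.3 and 334.6. Wnt7b was at 0.093 on its brighter probe (standard error 0.13) and Gli1 was not detected.

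Among the genes next to Otx1 and Otx2 on their chromosomes a single probe of 25 tested passed the criterion, against 8.29% of all tested probes. By the gene order of RefSeq in the mouse assembly GRCm38.p6, 5 protein-coding genes on each side of Otx1 on chromosome 11 were looked up. Of these 10 genes 8 were tested on 13 probes, with log2 differences between -0.095 and 0.18 and none past the criterion. Around Otx2 on chromosome 14, 6 of 10 genes were tested on 12 probes, between -0.11 and 0.28. The 1 probe past the criterion was that of Peli2 (standard error 0.083, adjusted p = 0.38 by limma), named after its values were seen.

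RefSeq gives 4 promoter windows for Otx2 in the assembly GRCm38.p6, each from 250 bases before to 50 after a transcription start, and the probe does not tell which start was used. The table used here has none for Otx1. OTX proteins bind the core TAATCC, and this motif, searched on both strands, was found in 2320 of 32851 windows of the same length (7.06%). It was present in 1 of the 4 Otx2 windows, chr14:48665060-48665359 on the minus strand, as its reverse complement. That window is shown because it alone of the Otx2 windows held the motif. It is given in the direction of transcription and with the motif in capitals. A match is a description of the letters and not a binding site.
Otx2 window: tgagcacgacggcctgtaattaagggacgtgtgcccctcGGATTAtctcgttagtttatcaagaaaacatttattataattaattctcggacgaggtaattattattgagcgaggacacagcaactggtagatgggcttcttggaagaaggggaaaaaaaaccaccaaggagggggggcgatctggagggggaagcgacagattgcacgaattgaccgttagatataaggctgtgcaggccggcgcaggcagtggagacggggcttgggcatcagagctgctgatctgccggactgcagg
The other Otx2 windows, chr14:48667595-48667894, chr14:48667459-48667758 and chr14:48662685-48662984, did not hold these letters. The first and second of these overlap each other. Of the 5 genes most like Otx2, 3 (Ptgds, Moxd1 and Ogn) were matched to a window and none of their 3 windows held the motif. Of the 5 most like Otx1, Kcnip1, Ankrd56 and Glra2 were matched, to 5 windows without it.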

How the data were processed

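The authors deposited, for each probe and array, the mean bead intensity, the bead SD, as an intensity too, and the number of beads, neither normalized nor background subtracted (GenomeStudio 1.9.0 per the file header). They also deposited a detection score, a fraction equal to 1 minus the detection p, which is the share of negative controls at least as bright. Another 16 columns were not used. Sample numbers in the labels linked columns to samples. The software that scanned the arrays applied no floor, so the floor at 1 and log2 of the methods were applied here, after quantile normalization between the 4 arrays, in R 4.3.3.

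All probes that had a detection p under 0.05 on at least 2 arrays were fitted with limma 3.58.1 (lmFit, eBayes with intensity trend), with lobe, and in a further fit lobe and replicate number, as terms, and Benjamini-Hochberg adjustment over all tested probes. The scripts were tested on simulated data. Figures were drawn with matplotlib 3.10.9.

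The members and the gene lists were chosen with earlier results of these data known. Lists are described by counts and medians, with 1 probe per gene, that of the highest mean signal, for the median, and a gene counts as passing if any of its probes does. Named are every Otx1 and Otx2 probe, the genes of the OTX family, boundary, partner, target and paper gene lists past the criterion, the first 8 genes of the choroid plexus list, of other cell type lists the first 3 in written order and any past the adjusted p, and the 5 genes most like each member. Older symbols were matched through the RefSeq table (GRCm38.p6), which was used for names and gene order. Alternatives were no normalization, a common 75th percentile, cyclic loess, neqc (offset 16), no filter, detection on all 4 arrays, a detection p under 0.01, no trend, a block for the replicate number, the methods' t-test, and the omission of single arrays.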

Additional observations from a re-analysis of the deposited data

How the results depend on the processing

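The lobe differences of Otx1 and Otx2 kept their direction in all 8 alternatives run for each. Leaving out a single array could not reverse it, as the arrays of the lobes were fully apart for both genes. Both genes were also chosen on this contrast. Over the other normalizations Otx2 lay between 3.81 without normalization and 4.16 with neqc, and Otx1 between -0.72 and -0.69. When each array was left out in turn, Otx2 ranged from 3.58 to 4.07 and Otx1 from -0.96 to -0.47. The replicate differences of both genes kept their sign in 4 normalizations, and the adjusted p by limma lay between 0.25 and 0.87 for Otx2 and between 0.26 and 1 for Otx1.

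The number of probes past the adjusted p, 23 in the reported fit, was 24 to 31 in 5 of 14 alternatives. It was 123 when no normalization was applied, 73 with all probes kept, 13 without the trend and 0 with the methods' t-test, where 1763 had an unadjusted p under 0.05. Leaving out each array gave 0 to 2561. The 0 was found without either posterior array by limma, with 785 and 844 probes at an unadjusted p under 0.05, and the 2561 without anterior replicate 1, where the lone anterior array is assumed to vary as the posterior arrays do. The number past the criterion, 1802, was 741 with the methods' t-test and 769 to 4833 when each array was left out. The cause was not tested.

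With the replicate block 588 probes passed the adjusted p and 2818 the criterion. The numbers name no shared animal. Over the tested probes the replicate difference in the anterior samples had a correlation of r = 0.458 with that in the posterior samples, across probes, which are not independent replicates.

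Of all listed genes 35 passed the criterion, or 33 without Tlx3 and Crabp2, which were detected in the posterior samples only. In alternatives chosen after seeing the data this was 34 or 35 in 4 normalizations, 45 with the replicate block and 17 with the methods' t-test, and 25 to 55 when each array was left out. The meningeal genes higher in the posterior lobes numbered 4 to 12 and the myelin genes lower there 8 to 10 over these 10 alternatives, in which Crabp2 could count. Only 2 arrays a lobe limit the precision.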
